A study of Homo sapiens with 12 samples.

Results

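C8orf4, CSNK1E, FAM155B, NWD2, ZNF711 and DPYSL3 are 6 of the 14438 genes counted by RNA-Seq in HEK293T lines carrying EZH2 mutants. They form a named list, chosen because each was shifted in the loss-of-function (LOF) line against the line with wild-type EZH2. All 6 had a row in the count table, and all 6 were among the 14263 genes tested. HEK293T is a human embryonic kidney line. The study infected it with lentivirus to obtain 4 lines, expressing EZH2 WT, the gain-of-function (GOF) mutants EZH2 Y641F or EZH2 A677G (Y641F and A677G in what follows), or the double mutant EZH2 H689A/F667I, the LOF mutant. Each line was sequenced in 3 biological replicates, 12 libraries in all. All 4 lines, the EZH2 WT line included, passed through infection with the same vector and blasticidin selection, and all still carried the EZH2 gene of HEK293T. The methods describe the selection as yielding monoclonal populations, so a mutation and the particular line that carries it cannot be told apart. In bulk RNA, fewer cells expressing a gene and less RNA per cell cannot be told apart either.

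EZH2 is the catalytic subunit of Polycomb repressive complex 2 (PRC2), which methylates lysine 27 of histone H3. Promoters rich in CG dinucleotides are its usual sites, and genes under trimethylated H3K27 are mostly silent. In lymphoma, substitutions at Y641 and A677 raise trimethylation. Changes that disable the catalytic domain lower it, and the study places LOF mutations in myelodysplastic syndrome and acute myeloid leukemia. The question behind these lines was how opposite changes of EZH2 activity alter chromatin and transcription. The 6 genes do not all share a pathway. DPYSL3 belongs to the cytoskeleton of growing axons, FAM155B to a sodium leak channel and ZNF711 to transcription at promoters. C8orf4 and CSNK1E belong to WNT signalling, CSNK1E also to the circadian clock, and NWD2 is not placed in a pathway here.

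Levels are given as CPM, the reads of a gene relative to all reads of its library, scaled between libraries by edgeR's TMM factors. Totals ran from 32137700 to 44562413 counts per library. EZH2 transcripts, introduced and endogenous together, averaged 158 CPM in EZH2 WT, 218 in Y641F, 173 in A677G and 208 in the LOF line. The mean EZH2 level was thus above EZH2 WT in each mutant line, which is a further difference between the lines, and its part in the results below was not tested. Of markers of HEK293T, VIM was at 244 to 272 CPM and KRT18 at 29.8 to 39.3, while PAX2 reached at most 0.594. Among markers of blood, vessel, liver and fibroblast cells, the collagen gene COL1A1 was at 5.43 to 9.72 CPM, and PTPRC, PECAM1, ALB and DCN had no row.

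The promoter sequences are shown first because CG content is the feature that PRC2 sites share, and the list was not chosen on it. RefSeq promoter sequences on GRCh38.p14 were matched for 5 of the 6 genes. Each sequence below is the 250 bases before the transcription start, 5′ to 3′ on the gene's own strand, in lower case with every CG in capitals. A CG reads the same on both strands.

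NWD2, chr4:37244493-37244742, plus strand: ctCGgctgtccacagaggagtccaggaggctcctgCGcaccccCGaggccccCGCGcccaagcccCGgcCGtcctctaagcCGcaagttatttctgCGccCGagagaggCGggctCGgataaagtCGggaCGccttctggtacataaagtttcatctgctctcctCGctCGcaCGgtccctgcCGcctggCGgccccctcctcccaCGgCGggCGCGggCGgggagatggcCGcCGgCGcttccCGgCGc
FAM155B, chrX:69504076-69504325, plus strand: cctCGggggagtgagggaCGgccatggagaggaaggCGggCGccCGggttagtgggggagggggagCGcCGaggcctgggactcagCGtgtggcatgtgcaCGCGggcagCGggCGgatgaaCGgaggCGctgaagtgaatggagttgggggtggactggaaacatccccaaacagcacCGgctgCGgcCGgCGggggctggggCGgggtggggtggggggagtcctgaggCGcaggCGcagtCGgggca
DPYSL3, upstream start, chr5:147510069-147510318, minus strand: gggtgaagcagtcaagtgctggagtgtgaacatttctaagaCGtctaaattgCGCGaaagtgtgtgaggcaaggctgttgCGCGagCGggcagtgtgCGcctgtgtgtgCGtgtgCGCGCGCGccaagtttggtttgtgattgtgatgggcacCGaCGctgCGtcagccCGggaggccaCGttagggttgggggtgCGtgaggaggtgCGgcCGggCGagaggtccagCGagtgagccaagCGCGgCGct
ZNF711, chrX:85243741-85243990, plus strand: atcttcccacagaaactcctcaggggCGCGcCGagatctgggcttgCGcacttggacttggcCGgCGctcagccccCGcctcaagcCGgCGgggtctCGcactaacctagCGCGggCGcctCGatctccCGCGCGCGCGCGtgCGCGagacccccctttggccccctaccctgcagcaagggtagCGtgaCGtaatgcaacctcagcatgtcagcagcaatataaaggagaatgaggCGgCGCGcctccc
CSNK1E, upstream start, chr22:38318085-38318334, minus strand: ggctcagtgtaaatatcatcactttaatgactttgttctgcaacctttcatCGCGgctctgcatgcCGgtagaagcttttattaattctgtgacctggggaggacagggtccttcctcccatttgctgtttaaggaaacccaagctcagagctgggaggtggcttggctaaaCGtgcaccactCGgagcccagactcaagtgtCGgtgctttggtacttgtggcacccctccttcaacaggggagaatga
CSNK1E, downstream start, chr22:38317434-38317683, minus strand: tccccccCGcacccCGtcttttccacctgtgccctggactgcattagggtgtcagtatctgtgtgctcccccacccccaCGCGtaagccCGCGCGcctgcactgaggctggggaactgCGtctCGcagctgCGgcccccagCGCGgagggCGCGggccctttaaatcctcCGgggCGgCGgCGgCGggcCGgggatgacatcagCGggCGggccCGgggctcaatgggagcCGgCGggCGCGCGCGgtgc

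Across 35116 RefSeq promoters, the median of these windows held 11 CG, with quartiles at 3 and 23. The NWD2 window held 29 CG, more than 85.9% of promoters. The ZNF711 window held 27, more than 82.3%. The upstream DPYSL3 window held 25, more than 78.4%, and the window of its second start, at chr5:147453693-147453942, held 21, more than 69.8%. The FAM155B window held 22, more than 72.0%. CSNK1E differed between its starts, with 6 CG in the upstream window, more than 38.1% of promoters, and 29 in the downstream one, more than 85.9%. The FAM155B window, the second DPYSL3 window and the upstream CSNK1E window lay below the upper quartile of 23, the last also below the median. The other windows lay above that quartile. A promoter above the median is common by definition, and the 35116 promoters were not limited to genes expressed here. No enrichment of CG among the 5 genes is therefore read from these counts. Methylated H3K27 at these windows was not analysed here.

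Of the 14263 genes, 43 had an adjusted p-value under 0.05 between the LOF line and EZH2 WT in edgeR's quasi-likelihood test, 0.301% of those tested. All 6 genes were among them, and lay between rank 7 and rank 35 by p-value. That comparison is given here as a description only. The tests of Y641F and A677G against EZH2 WT share the 3 EZH2 WT libraries with it, so they are not independent of the choice of genes. The test of Y641F against A677G shares no library with it.

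In Y641F, 4 of the 6 genes changed against EZH2 WT, beside 7.68% of all genes tested. FAM155B, NWD2 and DPYSL3 were lower and ZNF711 was higher. In A677G, 5 of the 6 changed, beside 8.55% of all genes, with CSNK1E also lower. C8orf4 passed the test in neither. Between Y641F and A677G, 0 of the 6 genes passed edgeR's quasi-likelihood test, where 0.0841% of all genes did. At an unadjusted p-value under 0.05, 2 of the 6 differed there. The edgeR exact test called 1, CSNK1E, and DESeq2 and limma voom called 0. Genes with no read in any A677G library or in any LOF library were left out of these tests. With no filter, 178 genes in place of 12 were called between Y641F and A677G, and CSNK1E passed (edgeR adjusted p = 0.0333).

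**Figure D1:**
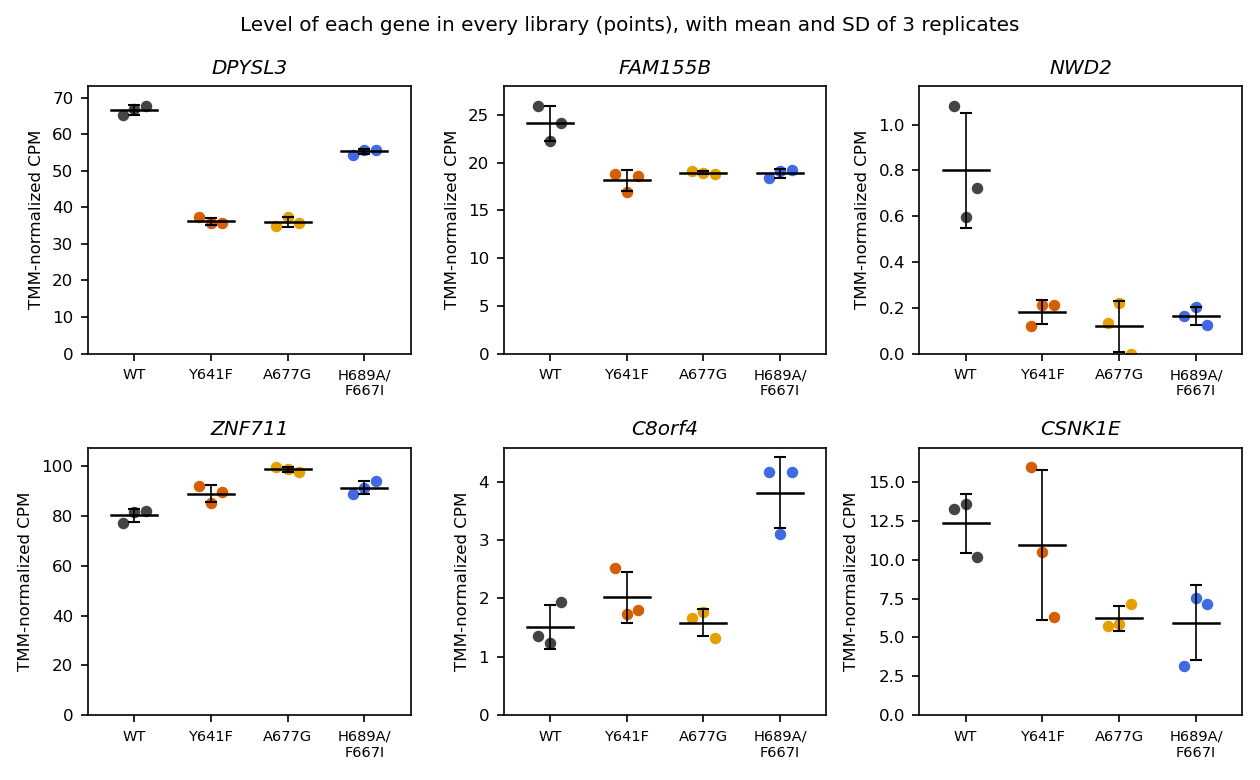
TMM-normalized CPM of each of the 6 genes (vertical axes, from 0) in the 4 lines (horizontal axes), with 1 point per library, a horizontal line at the mean and bars for the SD of 3 replicates. DPYSL3, FAM155B and NWD2 were lower in all mutant libraries than in EZH2 WT, ZNF711 was higher in all, C8orf4 was high only in the LOF line, and CSNK1E varied widely between replicates of Y641F and of the LOF line.

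DPYSL3 showed a graded level across the lines. It encodes collapsin response mediator protein 4, a cytosolic protein that binds tubulin and actin in growing neurites, and lies at chr5:147390808-147510068 on the minus strand. In EZH2 WT its 3 libraries were at 65.1, 66.8 and 67.7 CPM. In Y641F they were at 37.3, 35.6 and 35.6, and in A677G at 34.9, 37.5 and 35.7. The LOF libraries lay between, at 54.4, 55.8 and 55.6. No library of the LOF line overlapped EZH2 WT or a GOF line, while the GOF lines overlapped each other.

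The mean of DPYSL3 was 66.5 ± 1.31 CPM (SD, n = 3) in EZH2 WT and 55.3 ± 0.780 in the LOF line, 83.0% of EZH2 WT in the fit. It fell to 54.3% of EZH2 WT in Y641F (log2 fold change -0.88, SE 0.0487, edgeR adjusted p = 1.68e-15). It fell to 54.1% in A677G (-0.89, SE 0.0487, edgeR adjusted p = 6.91e-16). The log2 change in the LOF line was -0.27 (SE 0.0477). The LOF line was thus 1.53-fold above both GOF lines. Y641F and A677G differed by a log2 value of 0.01, with a 95% interval from -0.11 to 0.12. An unnamed antisense RNA overlaps the gene on the opposite strand and had no row in the table.

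FAM155B was lower in each mutant line than in EZH2 WT, by a similar amount. Its current name is NALF2, and its product is an auxiliary factor of the NALCN sodium leak channel. The gene lies at chrX:69504326-69532508. The EZH2 WT libraries were at 26.0, 22.3 and 24.2 CPM. Those of Y641F were at 18.9, 16.9 and 18.6, those of A677G at 19.2, 18.9 and 18.8, and those of the LOF line at 18.4, 19.1 and 19.2. Every mutant library was below every EZH2 WT library, and the mutant lines overlapped each other. The log2 fold change was -0.41 in Y641F (SE 0.0724, edgeR adjusted p = 1.33e-04) and -0.35 in A677G (SE 0.0722, edgeR adjusted p = 0.00101). It was -0.35 (SE 0.0729) in the LOF line. The 95% interval of the difference between Y641F and A677G ran from -0.23 to 0.10 on the log2 scale.

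NWD2 was the lowest of the 6 genes by count and had the largest fold changes against EZH2 WT. It encodes a protein with NACHT and WD repeat domains, and lies at chr4:37244743-37449463. The EZH2 WT libraries held 40, 23 and 24 reads. The Y641F libraries held 5, 8 and 9, the A677G libraries 6, 9 and 0, and the LOF libraries 6, 8 and 4. The count of 0 allows up to 0.0823 CPM in that library, by counting error alone. No mutant library reached the lowest EZH2 WT library.

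In CPM, NWD2 averaged 0.801 ± 0.252 (SD, n = 3) in EZH2 WT, 0.181 ± 0.0535 in Y641F, 0.119 ± 0.111 in A677G and 0.163 ± 0.0398 in the LOF line. The log2 fold change was -2.13 in Y641F (SE 0.509, edgeR adjusted p = 0.00262) and -2.68 in A677G (SE 0.572, edgeR adjusted p = 3.55e-04). Without replicate 2 of A677G its value was -3.39, and without replicate 3, which held no read, -2.16. It was -2.25 (SE 0.540) in the LOF line. Differences among the mutants were not detectable at this depth, since the 95% interval between Y641F and A677G ran from -0.98 to 2.06. Of the genes tested, 0.0210% had a lower mean log2 CPM than NWD2.

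ZNF711 was the gene of the list that was higher in every mutant library. It encodes an X-linked zinc finger protein that binds promoters and recruits the histone demethylase PHF8, and its loss causes intellectual disability. The gene lies at chrX:85243991-85273362. The EZH2 WT libraries were at 77.3, 81.7 and 82.1 CPM. Those of Y641F were at 92.2, 85.3 and 89.7, those of A677G at 99.6, 99.0 and 97.7, and those of the LOF line at 88.9, 91.4 and 94.0. The A677G libraries were above all others, and the Y641F and LOF libraries overlapped.

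The log2 fold change of ZNF711 was 0.30 in A677G (SE 0.0422, edgeR adjusted p = 3.87e-06), or 1.23-fold. It was 0.15 in Y641F (SE 0.0423, edgeR adjusted p = 0.0207), or 1.11-fold, and 0.19 (SE 0.0425) in the LOF line. The call in Y641F was lost with edgeR's exact test (adjusted p = 0.0545), when the fit held just the EZH2 WT and Y641F libraries (0.0671), and in edgeR without replicate 1 of EZH2 WT (0.155), replicate 1 of Y641F (0.0773) or replicate 3 of Y641F (0.0565). Y641F lay 0.15 below A677G on the log2 scale (95% interval -0.25 to -0.05), without overlap, but the edgeR adjusted p was 0.274.

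Of all genes tested, 1.46% had all 9 mutant libraries below all 3 EZH2 WT libraries, and DPYSL3, FAM155B and NWD2 were among them. Another 1.42% had all 9 above, ZNF711 among them. The list was chosen on one of the mutant lines, so these counts describe the genes and are read no further. FAM155B and ZNF711 are on the X chromosome. The 500 X-linked genes tested had a median log2 change of -0.02 in Y641F, -0.02 in A677G and -0.01 in the LOF line.

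C8orf4 was high in the LOF line and in no other. Its current name is TCIM, and its product is a small protein that binds Chibby and relieves the brake on beta-catenin. The LOF libraries were at 4.17, 3.11 and 4.16 CPM. The EZH2 WT libraries were at 1.35, 1.24 and 1.93, those of Y641F at 2.52, 1.73 and 1.80, and those of A677G at 1.66, 1.77 and 1.32. The LOF libraries were above all 9 others, and the other 3 lines overlapped.

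C8orf4 averaged 3.81 ± 0.610 CPM (SD, n = 3) in the LOF line against 1.51 ± 0.370 in EZH2 WT, 2.53-fold higher in the fit (log2 1.34, SE 0.221). The LOF line was 1.88-fold above Y641F and 2.39-fold above A677G. Y641F did not pass the test against EZH2 WT (log2 0.43, SE 0.229, edgeR adjusted p = 0.310), nor did A677G (0.08, SE 0.235, edgeR adjusted p = 0.896). The intervals of these differences, -0.10 to 0.96 and -0.46 to 0.63, do not exclude changes of over 1.5-fold. Counts ran from 48 to 154 per library.

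CSNK1E was the most variable of the genes with more than a few reads. It encodes casein kinase 1 epsilon, which phosphorylates the PER proteins of the clock and Dishevelled in WNT signalling. The EZH2 WT libraries were at 13.3, 13.6 and 10.2 CPM, and those of A677G at 5.72, 5.85 and 7.18. The Y641F libraries spread from 16.0 through 10.5 to 6.34. The LOF libraries were at 3.17, 7.54 and 7.17. A677G and the LOF line lay below EZH2 WT without overlap, while Y641F spanned EZH2 WT and reached into the range of both others.

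The SD of log2 CPM of CSNK1E within lines was larger than that of 97.2% of the genes tested. That SD was 0.503, against a median of 0.0868 over all genes tested. The biological coefficient of variation that edgeR estimated for CSNK1E was 0.169, against 0.0774 for genes of its abundance. This estimate is drawn toward that of those genes, so it understates the spread between the libraries of CSNK1E. CSNK1E fell in A677G by 0.99 on the log2 scale (SE 0.208, edgeR adjusted p = 0.00116), to 50.3% of EZH2 WT. DESeq2 did not call this change (adjusted p = 0.101). Its log2 change in the LOF line was -1.06 (SE 0.212), which ran from -1.28 to -0.75 when 1 replicate was left out.

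In Y641F the log2 change of CSNK1E was -0.18 (SE 0.198, edgeR adjusted p = 0.695), and without replicate 3 of Y641F it was 0.10. Y641F exceeded A677G by 0.81 (SE 0.208, 95% interval 0.33 to 1.29), with an edgeR adjusted p of 0.156. That difference passed with edgeR's exact test (adjusted p = 0.0211), with no filter on genes at 0 (0.0333) and in edgeR without replicate 3 of Y641F (1.09, adjusted p = 0.00173). CSNK1E lies at chr22:38290691-38318084 on the minus strand and overlaps a readthrough gene on the same strand, TPTEP2-CSNK1E, which had no row of its own. How reads common to both were assigned is not given in the sources used here, so the level of CSNK1E is uncertain.

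**Figure D2:**
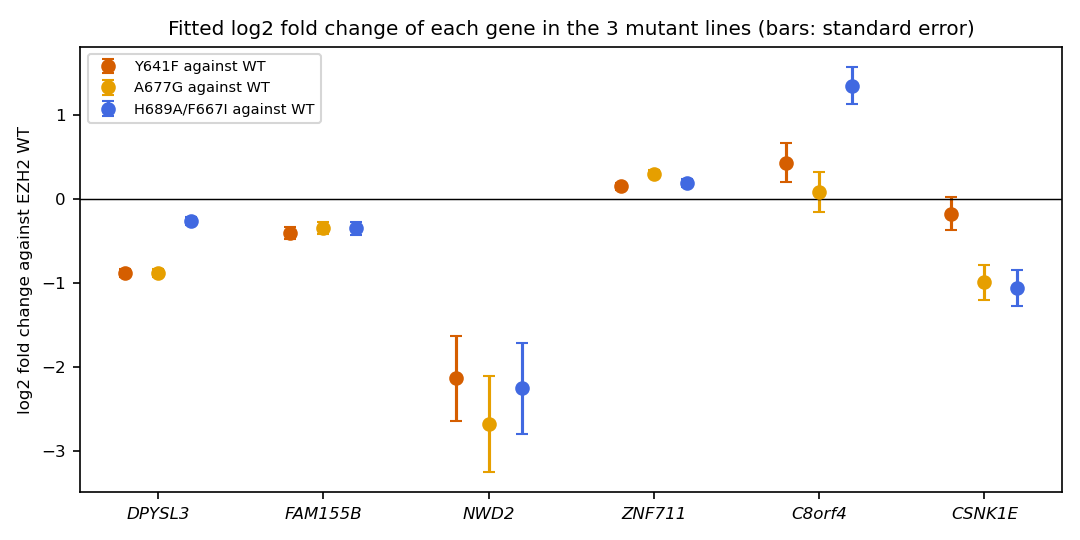
Fitted log2 fold change against EZH2 WT (vertical axis) of the 6 genes (horizontal axis) in Y641F, A677G and the LOF line, with bars for the standard error. DPYSL3 sits at -0.88 and -0.89 in the GOF lines and at -0.27 in the LOF line, NWD2 lies between -2.68 and -2.13 in all 3, and C8orf4 stands at 1.34 in the LOF line.

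The genes were compared next with their relatives, by lists of paralogs and partners drawn up by textbook role. DPYSL3 has 4 paralogs among the collapsin response mediator proteins, and all 4 were tested. DPYSL2, the most studied of them, was at 59.9, 60.3 and 61.7 CPM in EZH2 WT and at 58.7, 62.7 and 62.9 in the LOF line. It was at 48.5, 40.8 and 45.6 in Y641F and at 44.7, 47.5 and 46.6 in A677G. DPYSL2 fell in Y641F (log2 -0.43, SE 0.053, edgeR adjusted p = 3.92e-07) and in A677G (-0.39, SE 0.053, edgeR adjusted p = 1.99e-06). Its log2 change in the LOF line was 0.02, and its libraries overlapped those of EZH2 WT.

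DPYSL4 fell in Y641F (log2 -0.54, SE 0.130, edgeR adjusted p = 0.00535). That call was lost with DESeq2 (adjusted p = 0.0675), and in edgeR without replicate 3 of EZH2 WT (0.0511) or of Y641F (0.0787). In A677G the log2 change of DPYSL4 was -0.14 and in the LOF line -0.01, and neither passed the test. CRMP1 and DPYSL5 passed in no comparison, with log2 values from -0.17 to 0.05 against EZH2 WT. The median of the 4 paralogs was -0.26 in Y641F, -0.15 in A677G and -0.02 in the LOF line, where that of all genes tested was 0.00 in each.

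CSNK1D, the closest paralog of CSNK1E, CSNK1A1, CSNK1G1, CSNK1G2 and CSNK1G3 had log2 changes from -0.04 to 0.12 in the 3 mutant lines. In the comparisons with EZH2 WT and between the GOF lines, 0 of these 5 kinases passed edgeR's quasi-likelihood test. In the same comparisons, 0 had an unadjusted p-value under 0.05, and 0 were called by edgeR's exact test, DESeq2 or limma voom. The log2 change of CSNK1D was 0.04 (SE 0.063) in Y641F, 0.12 (SE 0.063) in A677G and 0.05 (SE 0.063) in the LOF line.

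**Figure D3:**
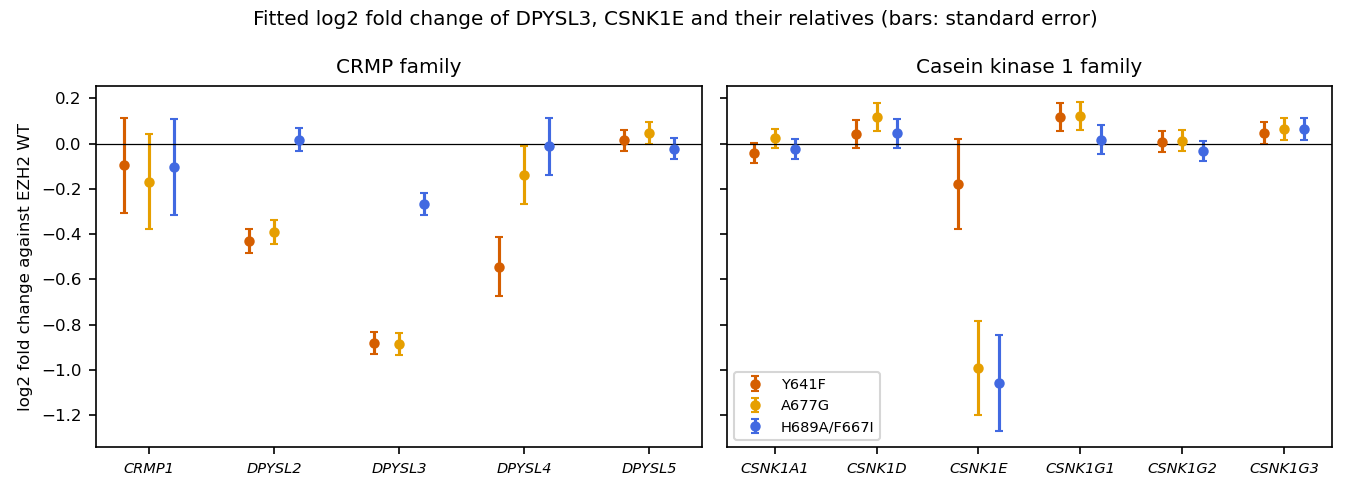
Fitted log2 fold change against EZH2 WT (vertical axes) of DPYSL3 with its 4 paralogs and of CSNK1E with its 5 relatives (horizontal axes), in Y641F, A677G and the LOF line, with bars for the standard error. DPYSL2 is lowered in both GOF lines and at 0.02 in the LOF line, where DPYSL3 is at -0.27, and the casein kinases other than CSNK1E stay between -0.04 and 0.12.

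Of 17 clock genes, 1 changed in Y641F, beside 7.68% of all genes tested, and 3 in A677G, beside 8.55%. Their median log2 change was -0.06 in Y641F, -0.0044 in A677G and 0.00 in the LOF line, beside 0.00 for all genes in each. PER1, a repressor of the clock and a substrate of CSNK1E, was at 33.7, 31.9 and 34.1 CPM in EZH2 WT, at 28.4, 28.8 and 28.6 in Y641F, at 29.4, 29.3 and 28.4 in A677G, and at 27.3, 28.0 and 29.7 in the LOF line. All 9 mutant libraries were below EZH2 WT. PER1 fell in Y641F (log2 -0.21, edgeR adjusted p = 0.0161) and in A677G (-0.19, edgeR adjusted p = 0.0302). PER1 was at -0.23 in the LOF line, with an adjusted p of 0.0966 in edgeR's quasi-likelihood test, 0.0221 in the exact test, 0.0319 in DESeq2 and 0.0438 in limma voom. ARNTL, the partner of CLOCK, fell in A677G (-0.41, edgeR adjusted p = 0.0468), and DBP, an output gene of the clock, rose there (0.29, edgeR adjusted p = 0.0179). The calls of PER1 were lost without some single replicates (adjusted p up to 0.0694 in Y641F and 0.111 in A677G), as were those of ARNTL (up to 0.307) and DBP (up to 0.128).

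Of 18 genes of WNT signalling, the pathway of C8orf4 and CSNK1E, 3 changed in Y641F and 2 in A677G, beside 7.68% and 8.55% of all genes tested. The median of the 18 was 0.02 in both GOF lines and -0.05 in the LOF line, beside 0.00 for all genes. LEF1, a transcription factor that beta-catenin binds, fell in Y641F (log2 -0.25, edgeR adjusted p = 0.00502) and in A677G (-0.33, edgeR adjusted p = 1.94e-04). NKD1, an inhibitor of Dishevelled, fell in both as well (-0.39 and -0.65, edgeR adjusted p = 0.0246 and 1.13e-04). LRP6, a WNT co-receptor, rose in Y641F (0.14, edgeR adjusted p = 0.0337), a call lost in 4 of 9 alternatives (adjusted p = 0.0672 in edgeR's exact test) and without any of 5 replicates in turn (up to 0.129). In Y641F, the calls of LEF1 and NKD1 were lost without some single replicates, with adjusted p up to 0.0669 and 0.130. In the LOF line, where C8orf4 was highest, the log2 changes of the 18 genes ran from -0.21 to 0.07. There 0 of the 18 passed edgeR's quasi-likelihood test, 1 had an unadjusted p-value under 0.05, and 0 were called by the exact test, DESeq2 or limma voom.

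Of 11 genes of semaphorin signalling, which acts on growth cones through collapsin response mediator proteins, 2 changed in Y641F and 3 in A677G, beside the same 7.68% and 8.55% of all genes. Their median was -0.04 in Y641F, 0.01 in A677G and -0.02 in the LOF line. The receptor genes PLXNA2 (log2 -0.56 and -0.48, edgeR adjusted p = 9.59e-04 and 0.00416) and NRP2 (-0.26 and -0.34, edgeR adjusted p = 0.0165 and 0.00147) fell in both GOF lines. NRP1 rose in A677G (0.21, edgeR adjusted p = 0.00571). Of the 11 genes, 0 in the LOF line passed edgeR's quasi-likelihood test, 1 had an unadjusted p-value under 0.05, and 0 were called by the other tools. The call of NRP2 in Y641F was lost without replicate 1 of EZH2 WT (adjusted p = 0.158) or replicate 2 of Y641F (0.0550), and that of NRP1 in A677G without replicate 2 of EZH2 WT (0.0565).

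NALCN, the channel that FAM155B serves, was at 0.260 to 1.12 CPM across the 12 libraries. Its log2 change was -0.50 in Y641F, -1.13 in A677G (edgeR adjusted p = 0.0618, and 0.00651 in the exact test and 0.0437 in limma voom) and 0.11 in the LOF line. FAM155A, UNC79 and UNC80, further parts of the channel, had no row. ZFX, the paralog of ZNF711, had log2 changes of 0.00, 0.06 and -0.03 in Y641F, A677G and the LOF line. PHF8, the demethylase ZNF711 binds, had log2 changes of 0.02, 0.06 and -0.04, and PHF6 and KDM5C stayed within -0.02 and 0.03. In the comparisons with EZH2 WT and between the GOF lines, 0 of these 4 genes passed edgeR's quasi-likelihood test. In the same comparisons, 0 had an unadjusted p-value under 0.05, and 0 were called by the other tools. TEP1, a NACHT and WD repeat gene like NWD2, was at 0.17, 0.10 and 0.08 and passed in none, and NWD1 had no row.

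Genes near the list were examined next, since H3K27 trimethylation often spreads over neighbouring genes. Within 500 kb of the 6 genes, 32 other genes were tested, 24 of them near CSNK1E and none near C8orf4. Of the 32, 3 changed in Y641F and 4 in A677G, near the shares of 7.68% and 8.55% among all genes tested. Between the LOF line and EZH2 WT, and between the GOF lines, 0 of the 32 passed edgeR's quasi-likelihood test, 3 in each case had an unadjusted p-value under 0.05, and 0 were called by the exact test, DESeq2 or limma voom. The median log2 change of the 32 was 0.01, 0.02 and 0.00 in Y641F, A677G and the LOF line, beside 0.00 for all genes tested.

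DPYSL3 had 1 tested neighbour, JAKMIP2, which lies 75.4 kb away. JAKMIP2 was at 15.3, 16.6 and 15.5 CPM in EZH2 WT, at 11.5, 8.56 and 9.01 in Y641F, at 9.94, 9.68 and 10.4 in A677G and at 13.5, 13.7 and 14.2 in the LOF line. The LOF libraries lay between EZH2 WT and the GOF lines, without overlap, as for DPYSL3. The log2 change of JAKMIP2 was -0.70 in Y641F (SE 0.0964, edgeR adjusted p = 2.29e-06), -0.66 in A677G (SE 0.0962, edgeR adjusted p = 6.61e-06) and -0.20 in the LOF line (SE 0.0946, edgeR adjusted p = 0.559).

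The nearest neighbour of NWD2 was C4orf19, 4.46 kb beyond its end. C4orf19 held 25, 21 and 16 reads in EZH2 WT, 16, 10 and 12 in Y641F, 13, 2 and 8 in A677G, and 18, 21 and 17 in the LOF line. C4orf19 fell in A677G (log2 -1.58, SE 0.478, edgeR adjusted p = 0.0223). Without replicate 2 of A677G, which held 2 reads, this was -1.13 (adjusted p = 0.163), and the call was lost too without replicate 1 (0.110) or 2 (0.0577) of EZH2 WT. In the LOF line, where NWD2 was at 21.0% of EZH2 WT, C4orf19 had a log2 change of -0.14 (SE 0.398), and its libraries overlapped EZH2 WT. TBC1D1, a regulator of glucose transport 442 kb from NWD2, fell in Y641F (-0.18, edgeR adjusted p = 0.0300) and A677G (-0.21, edgeR adjusted p = 0.0104). In Y641F that call was lost without any of 5 replicates in turn (adjusted p up to 0.188) and with edgeR's exact test (0.0513), library totals (0.0708) or a fit to the EZH2 WT and Y641F libraries alone (0.0698), and in A677G without replicate 2 of EZH2 WT (0.0630).

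Of the 24 genes around CSNK1E, H1F0, a linker histone gene 483 kb away, rose in Y641F (log2 0.21, edgeR adjusted p = 6.05e-04) and in A677G (0.15, edgeR adjusted p = 0.0201, up to 0.151 with 1 replicate left out). The median log2 change of the 24 was 0.04 in both GOF lines and 0.02 in the LOF line. EDA and PJA1 near FAM155B had log2 values from -0.27 to 0.03 and APOOL near ZNF711 from -0.01 to 0.04, and none of these 3 passed in a comparison with EZH2 WT.

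**Figure D4:**
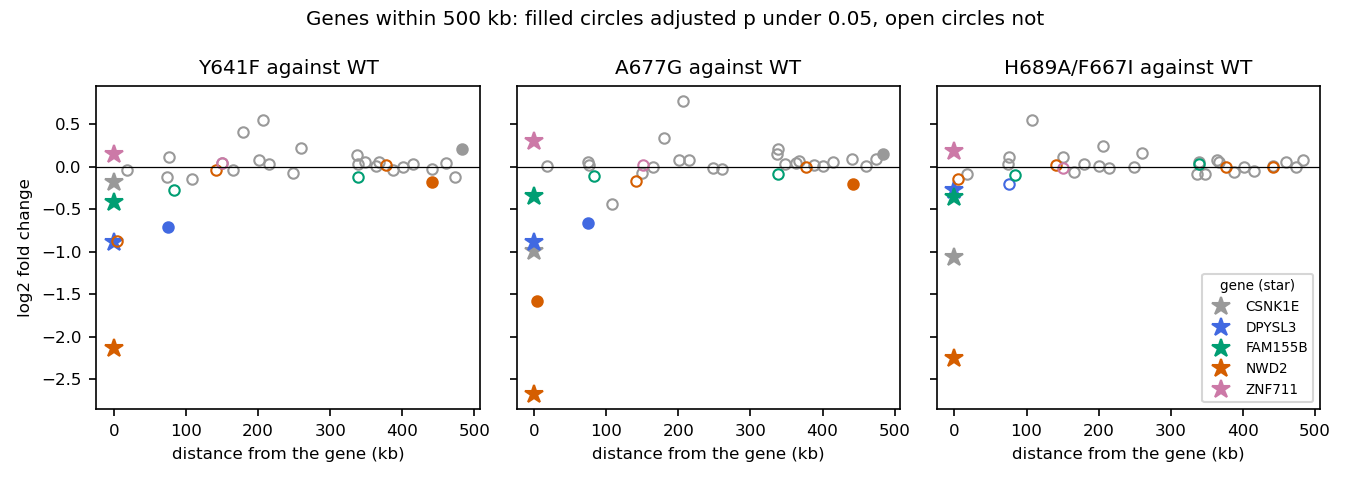
Log2 fold change against EZH2 WT (vertical axes) of genes within 500 kb of CSNK1E, DPYSL3, FAM155B, NWD2 and ZNF711, by distance in kb (horizontal axes), in Y641F, A677G and the LOF line. Stars mark the 5 genes themselves, filled circles neighbours with an adjusted p under 0.05 and open circles the others. JAKMIP2 at 75.4 kb from DPYSL3 lies at -0.70, -0.66 and -0.20, and no circle is filled in the LOF line.

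For each gene, the 2 genes with the most similar pattern were found by Pearson's r of log2 CPM over the 12 libraries, among 12035 genes whose mean log2 CPM reached 1. These libraries share lines and depth, so r describes likeness only. The similar genes were picked on these same libraries, so their changes, p-values and order of lines below are not independent of that choice. KCTD12, which encodes an auxiliary subunit of GABA-B receptors, was most like DPYSL3 (r = 0.98), followed by NEFL, the light neurofilament chain (r = 0.98). KCTD12 was at 416, 421 and 423 CPM in EZH2 WT, 284, 256 and 281 in Y641F, 278, 262 and 271 in A677G and 391, 397 and 388 in the LOF line. NEFL was at 137, 133 and 128 CPM in EZH2 WT, 83.8, 75.6 and 77.5 in Y641F, 74.7, 68.6 and 76.1 in A677G, and 118, 110 and 119 in the LOF line. Like DPYSL3, on whose pattern they were picked, both had LOF libraries below EZH2 WT and above the GOF lines.

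KCTD12 fell in Y641F (log2 -0.62, edgeR adjusted p = 1.40e-14) and A677G (-0.63, edgeR adjusted p = 5.14e-15), and was at -0.10 (SE 0.0373, edgeR adjusted p = 0.402) in the LOF line. NEFL fell in all 3 mutant lines, by 0.75, 0.86 and 0.21 on the log2 scale (edgeR adjusted p = 1.40e-14, 5.71e-16 and 0.0280). Both genes were picked for likeness to DPYSL3, itself chosen on the LOF line, over these same libraries. Their values therefore describe that pattern and are not an independent test of it.

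**Figure D5:**
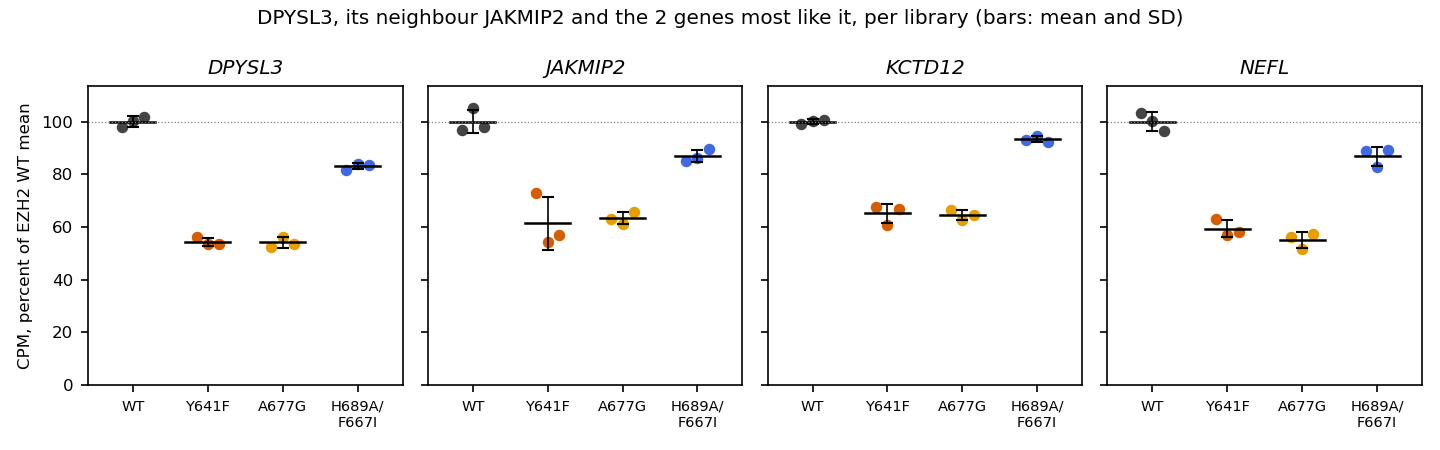
CPM of DPYSL3, its neighbour JAKMIP2 and the 2 genes of most similar pattern, KCTD12 and NEFL, as percent of the EZH2 WT mean (vertical axis, from 0) in the 4 lines (horizontal axes), with 1 point per library, the mean, and bars for the SD of 3 replicates. In each panel the LOF libraries lie between EZH2 WT and the GOF libraries. KCTD12 and NEFL were picked for likeness to DPYSL3, and JAKMIP2 by its position.

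The genes most like C8orf4 were GPCPD1 and PLCXD2 (both r = 0.92), with log2 changes of 0.28 and 0.42 in the LOF line that did not pass the test (edgeR adjusted p = 0.0860 and 0.442). Those most like FAM155B were TCOF1 and PER1 (both r = 0.92). TCOF1, a nucleolar protein gene, was at 334 CPM in EZH2 WT and at 305, 308 and 308 in Y641F, A677G and the LOF line. Those most like ZNF711 were CD59 (r = 0.93) and KIF15 (r = 0.92), and KIF15, a mitotic kinesin gene, rose in Y641F (log2 0.17, edgeR adjusted p = 0.0177) and A677G (0.23, edgeR adjusted p = 7.03e-04). For NWD2 they were AGBL3 and SNORA71C (both r = 0.90) and for CSNK1E ZEB1-AS1 (r = 0.88) and HDGF (r = 0.87). With library totals in place of TMM, SNORA71C and ZEB1-AS1 were no longer among the 2 most similar. The p-values of these similar genes, too, are not independent of their choice by likeness.

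Among the 6 genes themselves, the strongest relation was between NWD2 and ZNF711 (r = -0.82), followed by NWD2 and FAM155B (r = 0.77) and FAM155B and DPYSL3 (r = 0.75). C8orf4 had r between -0.45 and 0.23 with the others. The 12 points of each r are 3 libraries of each line, so they mostly carry the differences between lines given above.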

How the data were processed

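RNA-Seq of 12 samples was used, 3 per line. According to the methods, libraries came from the TruSeq Stranded mRNA kit, and reads were trimmed with Trim Galore 0.6.5, aligned to GRCh38 with STAR 2.7.9a and quantified with Salmon 1.2.0 on Gencode transcripts. The table that the authors deposited holds whole-number counts for each gene symbol, not normalized. The step from Salmon to these counts, how strand was treated and the filter that left 14438 genes are not given in the sources used here.

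The members of the list, the lists of relatives and the rule for named genes (members, paralogs, list genes and neighbours past the threshold, and the 2 most similar genes) were chosen with earlier results of these data known. The 175 genes with no read in any A677G library or in any LOF library were left out. The count model was fitted in edgeR 4.0.16 (R 4.3.3) with TMM factors and the quasi-likelihood test, over the 12 libraries with 1 coefficient per line. P-values were adjusted by Benjamini and Hochberg over 14263 genes at 0.05. The study's own test, edgeR's exact test, is among the alternatives. Intervals are 95% intervals of the fitted log2 change with 8 residual degrees of freedom. Log2 CPM used a prior count of 2. The common biological coefficient of variation was 0.0471. Whether the replicates came from separate cultures is not stated beyond their name, so p-values measure the spread between these samples. The count of 0 was read as up to 3 counts. The procedures were tested on simulated data. Alternatives were edgeR's exact test, DESeq2 1.42.0, limma 3.58.1 voom with sample quality weights, upper-quartile factors, library totals, no filter, a minimum of 10 counts in every sample, a fit to the libraries compared, the replicate number as a block, each replicate left out in turn, and neighbours within 1000 kb.

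Symbols were matched to GENCODE on GRCh38, 13272 by name and 809 through a RefSeq synonym, with 357 unmatched. Promoters came from RefSeq on GRCh38.p14. Protein and chromatin measurements were not analysed here. Results of 2 marker genes are not reported here.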

Additional observations from a re-analysis of the deposited data

How the results depend on the processing

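Of the 9 alternatives that kept all samples, each left 3 or 4 of the 6 genes changed in Y641F and 4 or 5 in A677G, and so did leaving out 1 replicate (3 to 4 and 5). Between Y641F and A677G, 1 of the 6 genes, CSNK1E, passed with edgeR's exact test and with no filter, and 0 to 1 when 1 replicate was left out. With 1 replicate left out, some values without a call changed sign, among them CSNK1E in Y641F against EZH2 WT (-0.56 to 0.10), C8orf4 in A677G against EZH2 WT (-0.0427 to 0.291, and -0.00238 without replicate 2 of A677G) and DPYSL3 between the GOF lines (-0.0168 to 0.0357). Between the LOF line and A677G, CSNK1E ran from -0.29 to 0.24, NWD2 from -0.09 to 1.14 and FAM155B from -0.02 to 0.01, and between the LOF line and Y641F, NWD2 ran from -0.35 to 0.03. The log2 changes of the 6 genes in the LOF line against EZH2 WT kept their sign in every alternative and every fit with a replicate left out that could be made.

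Over all genes, 43 were called in the LOF line. This was 146 with edgeR's exact test, 169 with no filter, 86 with only the compared groups, 99 with limma voom, and 11 to 36 with 1 replicate left out. In A677G, 1849 genes were called with the exact test in place of 1219, and 825 to 1042 with 1 replicate left out. In Y641F, 703 to 1232 were called with 1 replicate left out. Between the GOF lines, 12 were called, 178 with no filter, which adds the genes at 0 in a line, and 8 to 57 with 1 replicate left out. The number of neighbours called grew with the window of 1000 kb, to 9 in Y641F, 8 in A677G and 1 in the LOF line. NWD2 could not be fitted at a minimum of 10 counts in every sample. Otherwise the cause was not tested.

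Replicate numbers did not pair the samples: the correlation of deviations between same-numbered libraries ran from -0.06 to 0.05, and 0 of 12 libraries had all of their same-number correlations above all their others. With the replicate block, 1108 genes were called in Y641F, 1238 in A677G, 16 between the GOF lines and 40 in the LOF line, and it changed no call of the 6 genes (4, 5 and 0 called). EZH2 itself was called higher in A677G (log2 0.13, edgeR adjusted p = 0.0294), but not with library totals, with upper-quartile factors or without 4 of 6 replicates in turn (adjusted p up to 0.233). Depth limits NWD2, with 0 to 40 reads per library, and C4orf19 and NALCN, which are as low.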
